A study of Drosophila melanogaster with 10 samples.

Results

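The genes described here are 10 components of the Notch signalling pathway of *Drosophila*, followed in mushroom body neurons at 2 ages around puparium formation. They are the receptor N, its ligands Dl and Ser, the modifier and processing genes fng, kuz and Psn, and the nuclear genes Su(H), mam, H and gro. These genes were chosen by values measured in these same arrays, with the difference between the ages of fng and gro in view. Differences of the members between the ages are therefore given as a description, with standard errors and no test. Of 10844 genes that the array annotation names by a single symbol, 6 of the 10 members were found by their exact symbol, in 9 probe sets. A seventh member, Dl, was found through its gene identifier in 1 probe set that carries the newer symbol Delta. The other 3 members, N, Ser and Su(H), had no probe set under their symbols and were not analysed here, so the receptor itself and its DNA-binding partner are missing from what follows.

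Every sample came from animals in which the OK107-GAL4 driver, present in 1 copy, expressed the membrane-bound marker UAS-mCD8::GFP and the dominant negative ecdysone receptor UAS-EcRB1[W650A] in a yw/w background. OK107-GAL4 is an insertion at the eyeless locus that is active throughout the mushroom body, and also in some other brain cells. Both ages carried the dominant negative receptor, and the y,w animals that the design text mentions were not analysed here, so the values describe age and not the effect of blocking the receptor. There were 6 arrays at 0 h and 3 arrays at 5 h after puparium formation. Samples are labelled as biological replicates, with no number of animals behind each. Marked cell bodies were laser-captured from 15 µm frozen sections, about 100 in a capture, and 40 captures were pooled for a replicate. About 22 ng of RNA was then amplified in 2 rounds and hybridised to an Affymetrix Drosophila Genome array. A further array is titled as 5 h but carries 0 h in its age label and its description. It enters no comparison of the main fit. Where the text says so, a result is also given with it taken as 0 h or as 5 h.

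Notch is a receptor that is cut when a ligand on a neighbouring cell binds and pulls on it. The first cut is made by the metalloprotease kuz and the next, inside the membrane, by the gamma-secretase complex with Psn as its catalytic subunit. The released intracellular part enters the nucleus, joins Su(H) and mam and switches on target genes such as those of the E(spl) complex, while in cells without the signal Su(H) is bound by H, which brings in the corepressors gro and CtBP. The glycosyltransferase fng adds a sugar to Notch in the Golgi that favours activation by Dl over activation by Ser. In the nervous system the pathway is known for separating the fates of sister cells, and in the adult mushroom body of the fly for its part in long-term memory.

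Among the members that were measured, fng stood higher at 5 h and Dl read slightly higher. Psn also read higher, with overlapping arrays and by an amount that depended strongly on the 0 h arrays used. The genes kuz, H and mam differed by less than their spread or in a direction that depended on the arrays or the probe set used. The gene gro had a pair of probe sets that went opposite ways. Signals are log2 values from RMA, a method that combines the probes of each probe set. Differences between the ages are taken within a probe set. Probe sets are set against each other or against controls only to call them brighter, dimmer or in the background. Of the 10 member probe sets, 7 read higher and 3 lower at 5 h, with a median log2 difference, 5 h minus 0 h, of 0.26 against -0.07 over all probe sets. In the limma fit over all probe sets, 2 of the 10 passed an adjusted p of 0.05, those of fng and 1 of gro, where 1.25% of all 13966 probe sets passed. In 3 of the 10, those of Dl, fng and 1 of gro, the arrays of the ages did not overlap, which was true of 9.79% of all probe sets. The members were chosen with this contrast known, so nothing is read from these counts. On all 9 grouped arrays 9 of the 10 read above 3.73, the brightest of 8 control probe sets that match no fly sequence. In captured tissue such as this, fewer cells of a type and less RNA per cell cannot be told apart.

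**Figure D1:**
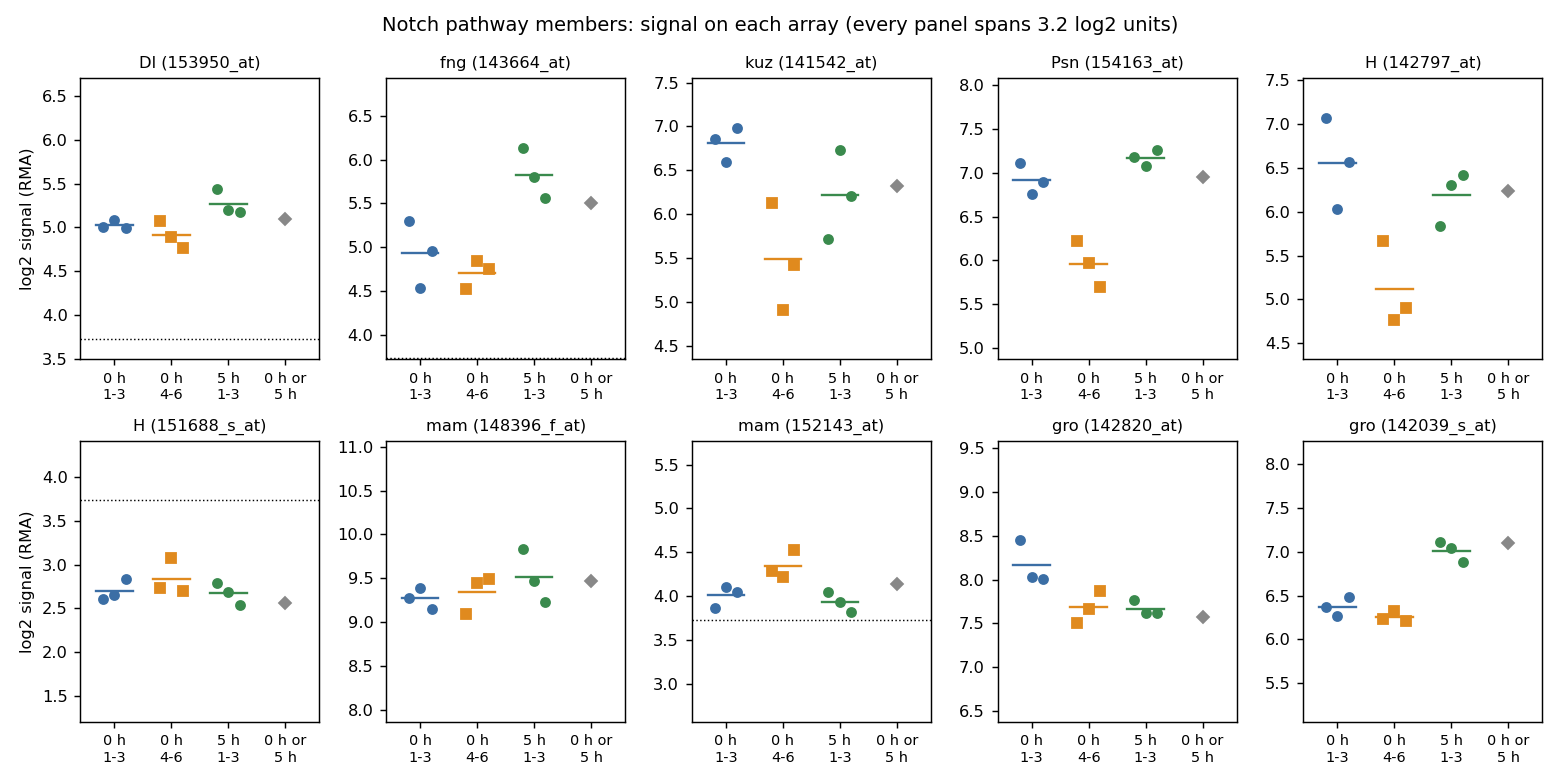
Log2 RMA signal (vertical axis) of each member probe set on every array, in panels that all span the same number of log2 units. Blue circles are 0 h replicates 1 to 3, orange squares 0 h replicates 4 to 6, green circles the 3 arrays at 5 h and the grey diamond the array whose labels name both ages; horizontal bars are means and the dotted line, where it lies within a panel, is the highest foreign control at 3.73. The 5 h points of fng (5.56 to 6.13) and of gro probe set 142039_s_at (6.89 to 7.11) lie above every 0 h point, while kuz, Psn and H are split between the 2 sets of 0 h arrays.

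The arrays themselves differed in ways that bear on every member. At 0 h the 6 arrays split into 2 sets of 3: Pearson r over probe sets, which share arrays and are no replicates, was 0.989 to 0.991 within replicates 1 to 3, 0.969 to 0.981 within replicates 4 to 6, and 0.948 to 0.974 between them. No labelled batch follows this division. The 3' bias of the RNA, taken as the 3' minus the 5' control probe set of actin, averaged 7.81 ± 0.28 on the log2 scale over the 0 h arrays (SD, n = 6). Over the 5 h arrays it averaged 8.55 ± 0.08 (SD, n = 3), with a two-sided exact permutation p of 0.012, the smallest that 84 arrangements allow. The same measure for GAPDH was 5.15 ± 0.50 and 5.55 ± 0.08 (exact permutation p = 0.17). The sets of 0 h arrays differed in it, with a GAPDH mean of 4.80 in replicates 1 to 3 and 5.50 in replicates 4 to 6. For actin these means were 7.91 and 7.71. On the array with conflicting labels the actin measure was 8.44. How far the 3' bias enters the members' differences was not tested beyond the fits that hold it as a covariate.

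Marker genes of the labelled cell type were mostly above background, as were many glial genes. A listed gene is called in the background where its mean lay below 3.73 at both ages. The mean of the Pax6 gene ey was 9.32 before and 9.22 at the later age, well above background, and toy, a second Pax6 gene, rose by 1.06 on the log2 scale (adjusted p = 0.038 in limma). The mean log2 signal of 11 measured mushroom body markers of 13 listed was 6.56 to 6.79 on the 0 h arrays and 6.81 to 6.90 at 5 h, with sNPF in the background. Of these 11 genes 6 read higher and 5 lower, toy and 14-3-3zeta rose past the threshold, and dac, chinmo and Dop1R1 were dim, with means of 4.35, 4.01 and 4.46 at 0 h. For 13 measured glial markers of 15 it was 4.81 to 5.43 at 0 h and 5.48 to 5.57 at 5 h. Of these 13 genes 8 read higher and 5 lower, nrv2 and bdl rose past the threshold, and alrm had a difference of 1.59 (limma adjusted p = 0.15), Gs2 of -0.37 and loco of -0.27 on the log2 scale. The genes gcm and Gli lay in the background at both ages, and the glial transcription factor gene repo had a mean of 6.53 on the 0 h arrays and 7.36 on those of 5 h (limma adjusted p = 0.25). For 9 measured neuroblast markers of 10 the mean was 4.13 to 4.42 and 4.17 to 4.37, with ase, insc, grh and CycE in the background and wor, mira, pros, brat and dpn above it. The largest difference of that list was that of mira, 0.59 on the log2 scale (limma adjusted p = 0.36). For 8 measured general neuron markers of 10 it was 5.03 to 5.36 and 5.41 to 5.49, with elav risen and Syn, cac and para in the background by their means. Of these, cac lay close to the limit, with a 0 h median of 3.79. The part of these cell types in the members' differences was not tested.

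**Figure D2:**
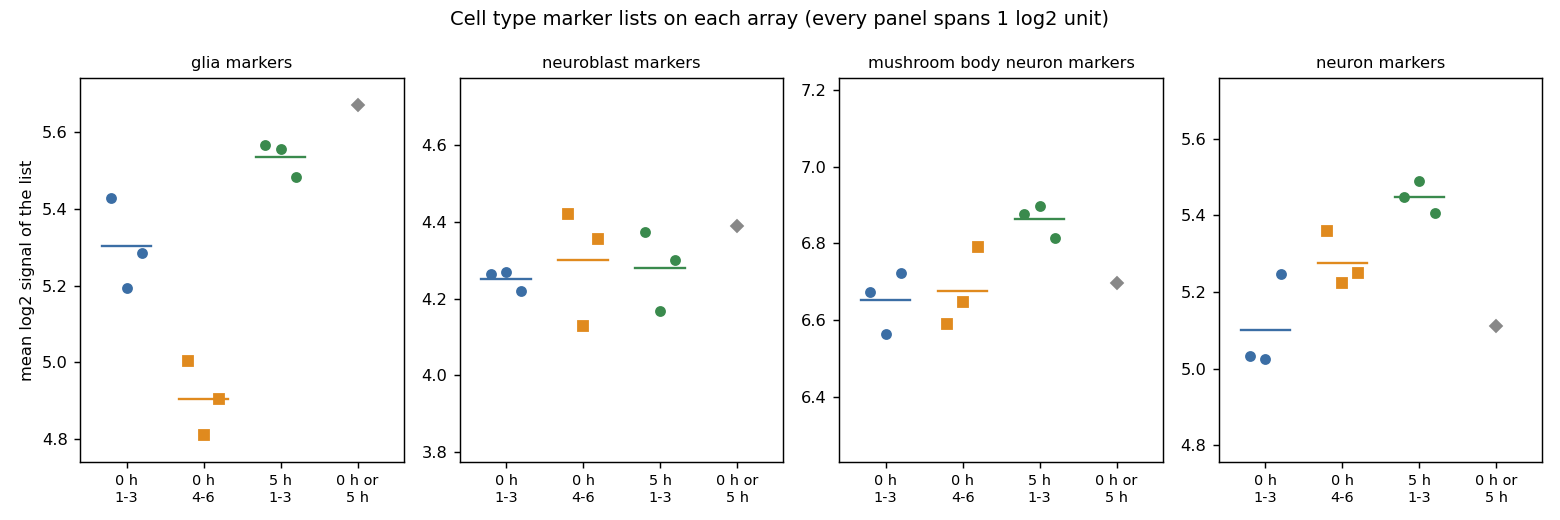
Mean log2 signal over the measured genes of each cell type marker list (vertical axis) on every array, with symbols as in the plot of member signals and horizontal bars for means. The glial list lies at 4.81 to 5.43 on the 0 h arrays, lowest on replicates 4 to 6, and at 5.48 to 5.57 at 5 h. The mushroom body list (0 h up to 6.79, 5 h from 6.81) and the neuron list (0 h up to 5.36, 5 h from 5.41) also do not overlap, by little. Only the neuroblast list overlaps between the ages.

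Of the ligands, Dl was measured and Ser was not. Dl encodes the transmembrane ligand Delta. At 0 h Dl (probe set 153950_at) ranged from a log2 signal of 4.76 to 5.08 with a median of 5.00, and at 5 h its 3 arrays read 5.44, 5.19 and 5.18. All 3 arrays at 5 h lay above all 6 at 0 h, although the gap between the nearest arrays was small beside the spread within either age. The means were 4.97 ± 0.12 (SD, n = 6) and 5.27 ± 0.14 (SD, n = 3), a log2 difference of 0.30 (SE 0.11). Against 0 h replicates 1 to 3 alone the difference was 0.24 and against replicates 4 to 6 alone 0.36, so Dl was among the members that depended least on the set of 0 h arrays. The fit that includes the actin 3' bias gave 0.37 (SE 0.22).

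Among the modifiers, fng had the clearest separation between the ages. At 0 h fng (probe set 143664_at) read from 4.52 to 5.30 with a median of 4.80, and at 5 h its arrays read 6.13, 5.80 and 5.56. Every 5 h array was above every 0 h array, and the highest 0 h array, replicate 1, came nearest. The mean log2 signal was 4.82 ± 0.29 over the 6 arrays of 0 h and 5.83 ± 0.29 over the 3 of 5 h (SD), so the level at 5 h was 2.02-fold that at 0 h, a log2 difference of 1.01 (SE 0.18). Both sets of 0 h arrays gave a difference of like size, 0.90 (SE 0.19) against replicates 1 to 3 and 1.13 (SE 0.16) against replicates 4 to 6. When single arrays were left out it ranged from 0.86 to 1.15. A fit with a term for the actin 3' bias gave a difference of 0.57 (SE 0.33). The actin bias did not overlap between the ages, at most 8.10 at 0 h and at least 8.47 at 5 h, so all fits with this term separate it poorly from age. The difference was 0.91 if the array with conflicting labels is taken as 0 h and 0.93 if it is taken as 5 h.

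The protease gene kuz showed no difference that the 0 h arrays shared. Its log2 signal (probe set 141542_at) at 0 h was 6.86, 6.59 and 6.98 in replicates 1 to 3 and 6.12, 4.91 and 5.42 in replicates 4 to 6, and at 5 h it was 5.72, 6.73 and 6.21. The 5 h arrays lay between or among these, so the ages overlapped. Their means were 6.15 ± 0.83 (SD, n = 6) and 6.22 ± 0.51 (SD, n = 3), a difference of 0.07 (SE 0.42) on the log2 scale. It was -0.59 (SE 0.22) against replicates 1 to 3 and 0.74 (SE 0.31) against replicates 4 to 6, and the sign turned in 7 of 19 alternative fits.

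The presenilin gene Psn was steady at 5 h and variable at 0 h. Its log2 signal (probe set 154163_at) was 7.17, 7.07 and 7.25 on the 5 h arrays. At 0 h it was 7.11, 6.76 and 6.89 in replicates 1 to 3 and 6.22, 5.97 and 5.70 in replicates 4 to 6. Replicate 1 at 0 h reached into the range of the 5 h arrays, and the 3 lowest arrays were replicates 4 to 6. The means were 6.44 ± 0.56 (SD, n = 6) and 7.17 ± 0.09 (SD, n = 3), which is 1.65-fold higher at 5 h or a log2 difference of 0.73 (SE 0.28). The difference against replicates 1 to 3 was 0.25 (SE 0.11), and against replicates 4 to 6 it was 1.20 (SE 0.15). The fit with a term for the 3' bias gave 0.16 (SE 0.53), smaller than its standard error.

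**Figure D3:**
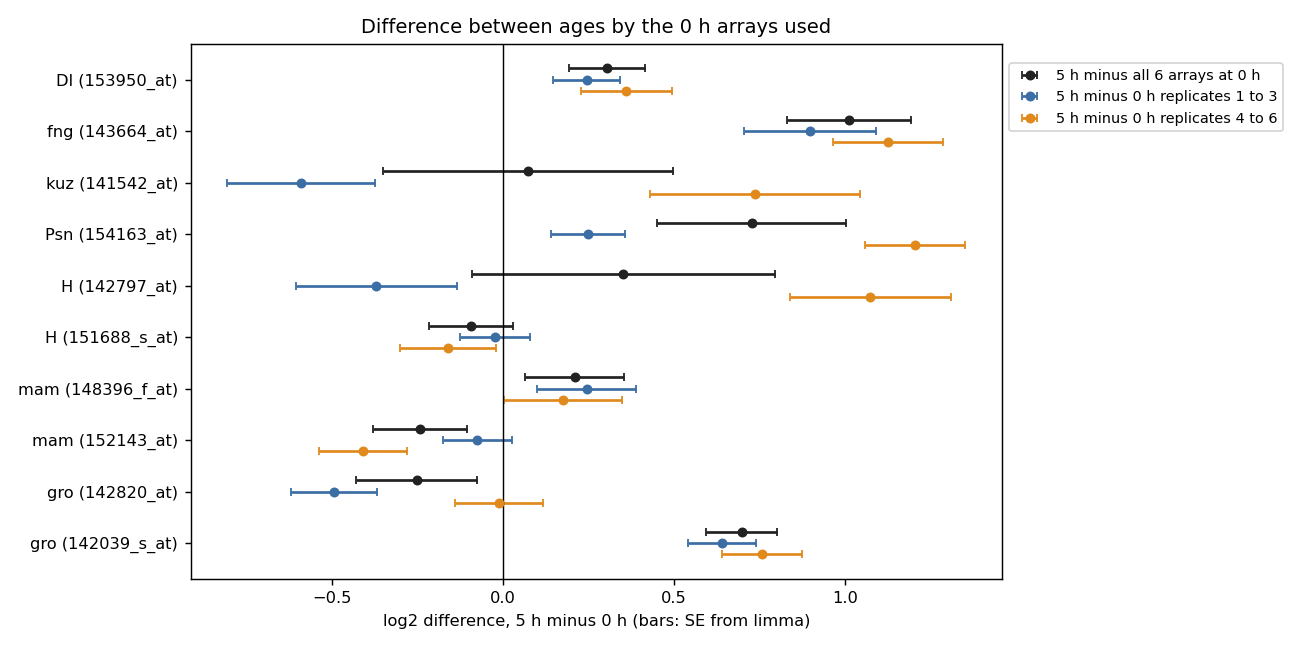
Log2 difference of each member probe set, 5 h minus 0 h (horizontal axis), with standard errors from limma as bars, computed against all 6 arrays at 0 h (black), against 0 h replicates 1 to 3 (blue) and against replicates 4 to 6 (orange). For fng (0.90 and 1.13) and gro 142039_s_at (0.64 and 0.76) the values against both sets lie close together, whereas kuz and H 142797_at change sign between them.

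The nuclear members are the coactivator mam, the Su(H) antagonist H and the corepressor gro, each with a pair of probe sets. For mam, the brighter probe set 148396_f_at, whose suffix marks probes shared with a family of transcripts, read from 9.09 to 9.49 at 0 h with a median of 9.33 and 9.84, 9.47 and 9.23 at 5 h. The ages overlapped, with 1 array at 5 h above all at 0 h. The means were 9.31 ± 0.16 (SD, n = 6) and 9.51 ± 0.30 (SD, n = 3), a log2 difference of 0.21 (SE 0.14). The dimmer mam probe set 152143_at lay just above background, from 3.87 to 4.52 at 0 h with a median of 4.16 and at 4.05, 3.93 and 3.81 at 5 h. It went the other way, by -0.24 on the log2 scale (SE 0.14). This was -0.08 (SE 0.10) against 0 h replicates 1 to 3 and -0.41 (SE 0.13) against replicates 4 to 6. In the fit with the actin 3' bias its sign turned, to 0.12 (SE 0.25). The mean of both mam probe sets differed by -0.02, so mam had no direction that its probe sets shared.

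H, which holds Su(H) in a repressive complex, was measured by 1 usable probe set. The signal of H (probe set 142797_at) at 0 h was 7.07, 6.03 and 6.57 in replicates 1 to 3 and 5.67, 4.77 and 4.91 in replicates 4 to 6, and at 5 h it was 5.83, 6.31 and 6.42 on the log2 scale. The 5 h arrays lay inside the range at 0 h, below the highest of replicates 1 to 3 and above all of replicates 4 to 6. The means were 5.84 ± 0.91 (SD, n = 6) and 6.19 ± 0.31 (SD, n = 3), with a log2 difference of 0.35 (SE 0.44). It was -0.37 (SE 0.24) against replicates 1 to 3 and 1.07 (SE 0.23) against replicates 4 to 6. The other probe set of H, 151688_s_at, read from 2.54 to 3.08 on the 9 arrays, below the highest foreign control on each, so its difference of -0.09 carries no information on H.

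The corepressor gene gro gave opposite readings. Probe set 142820_at read from 7.50 to 8.45 on the log2 scale at 0 h, with a median of 7.94, and 7.76, 7.62 and 7.62 at 5 h. These 5 h values fell within the range at 0 h, toward its low end. The means were 7.92 ± 0.33 (SD, n = 6) and 7.67 ± 0.08 (SD, n = 3), a log2 difference of -0.25 (SE 0.18) that was -0.49 (SE 0.13) against 0 h replicates 1 to 3 and -0.01 (SE 0.13) against replicates 4 to 6. Probe set 142039_s_at, whose suffix marks probes that more than 1 transcript can share, read from 6.21 to 6.49 at 0 h, with a median of 6.30, and 7.11, 7.04 and 6.89 at 5 h. Here both ages were tight and far apart, with no overlap. The means were 6.32 ± 0.10 (SD, n = 6) and 7.01 ± 0.12 (SD, n = 3), so the level at 5 h was 1.62-fold that at 0 h, a log2 difference of 0.70 (SE 0.10).

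The higher reading of gro 142039_s_at held against both sets of 0 h arrays, at 0.64 against replicates 1 to 3 and 0.76 against replicates 4 to 6, and ranged from 0.65 to 0.76 with single arrays left out. With the array of conflicting labels taken as 0 h it was 0.59 (SE 0.17), and with that array as 5 h it was 0.72 (SE 0.09). After repeated quantile normalization the difference of gro 142039_s_at was 0.52, and in the fit with the 3' bias it was 0.49 (SE 0.19). The same alternatives gave larger negative differences for gro 142820_at, -0.46 (SE 0.11) and -0.56 (SE 0.34). The average of the gro probe sets differed by 0.22. Which gro transcripts each probe set reads is not known here, and with probes that can be shared the higher reading may not belong to gro alone, so no direction is given for the gene.

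The gene gro lies on chromosome arm 3R at the end of the E(spl) complex, a cluster of Notch target genes, in the RefSeq annotation of Release 6. Of 13 genes from E(spl)mdelta-HLH to Exo84, the gene that follows gro, 11 were measured, and 10 of them read lower at 5 h. Of 9 that lay above background at either age, 8 read lower, since E(spl)mdelta-HLH and E(spl)m6-BFM were in the background. The 10 are all of the measured E(spl) genes, with log2 differences from -0.28 to -0.03, while Exo84 differed by 0.06. The median of all genes was -0.06, so over the whole array too more genes read lower than higher. With 0 h replicates 4 to 6 alone as reference, E(spl)m1, E(spl)malpha-BFM and E(spl)m4-BFM read -0.48, -0.27 and -0.18. With replicates 1 to 3 alone these shrank to -0.09, -0.08 and -0.02. Among the 8 lower genes above background, only E(spl)m2-BFM went the other way, -0.11 and -0.19. The background genes E(spl)mdelta-HLH and E(spl)m6-BFM turned to 0.02 with replicates 1 to 3. No gene of the 11 passed the test (smallest adjusted p in limma 0.38). Among the measured E(spl) genes the arrays of the ages did not overlap in E(spl)m7-HLH alone, where 9.97% of all genes did not overlap. The gap was small, from 5.35 on the highest 5 h array to 5.36 on the lowest 0 h array. Probe set 142039_s_at of gro was the only probe set along this stretch with a difference above 0.1.

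**Figure D4:**
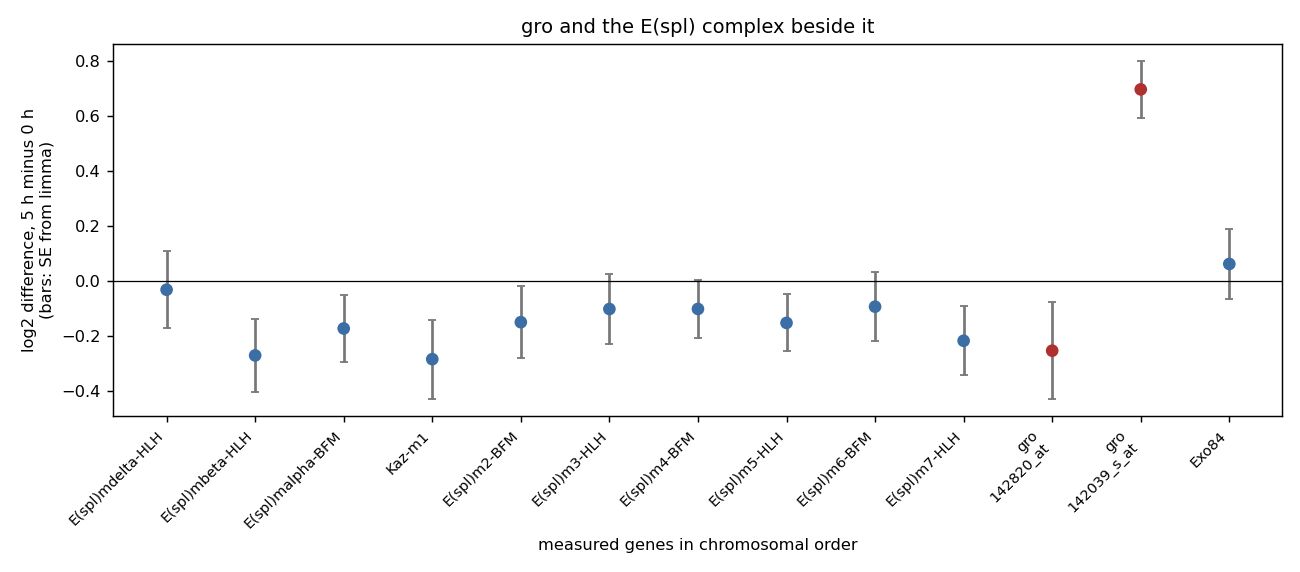
Log2 difference, 5 h minus 0 h (vertical axis, bars are standard errors from limma), of gro (red) and the measured genes beside it (blue) in the order in which they lie on the chromosome, without scale along it. The E(spl) genes lie from -0.28 to -0.03, gro 142820_at at -0.25 and gro 142039_s_at at 0.70.

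Other genes of the pathway were followed in 5 lists by role, with 46 measured of 58 listed, each by its brightest probe set. None of the 46 passed an adjusted p of 0.05 in limma, where 1.35% of all 10844 genes did. At an unadjusted p of 0.05, 8 of the 46 passed, a share of 17.4% against 15.3% of all genes. There were 19 that read higher and 27 that read lower at 5 h, with a median log2 difference of -0.06, the same as the -0.06 over all genes. In 6 of the 46 the ages did not overlap, which was true of 9.97% of all genes, and 8 lay in the background at both ages. The lists were drawn up with earlier results of these arrays known.

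Among the genes for ligand endocytosis and receptor processing, 7 of 12 were measured, and 5 read higher and 2 lower with a median log2 difference of 0.19. The median was -0.04 against 0 h replicates 1 to 3 and 0.58 against replicates 4 to 6. Tace encodes a metalloprotease whose mammalian relative cuts Notch. Its log2 signal ranged from 8.36 to 8.96 at 0 h, with a median of 8.65, and was 9.02, 8.98 and 9.27 at 5 h. The 5 h arrays of Tace were all above the 0 h arrays, by little, and its difference of 0.42 (SE 0.15) did not pass (adjusted p = 0.22 in limma, from 0.018 to 0.9997 over the alternative fits). The auxilin gene aux, whose product uncoats clathrin vesicles and is needed in cells that send the signal, read 5.75 ± 0.45 at 0 h and 6.18 ± 0.25 at 5 h, a log2 difference of 0.43 with overlapping arrays (adjusted p = 0.42 in limma).

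Of 14 genes for receptor trafficking and turnover, 11 were measured, and 5 read higher and 6 lower with a median of -0.01. The genes numb, Nedd4 and krz, which act on Notch uptake and breakdown, lay in the background at both ages. Nle, Notchless, encodes a WD40 protein found as a modifier of Notch activity and came nearest to the threshold of all 46 genes. Its log2 signal ran from 4.03 to 4.42 at 0 h, with a median of 4.23, and was 4.59, 4.70 and 4.78 at 5 h. The ages were fully apart, and the difference of 0.48 (SE 0.11) had an adjusted p of 0.064 in limma, from 0.012 to 0.9997 over the alternative fits. With the array of conflicting labels the limma adjusted p was 0.26 as 0 h and 0.028 as 5 h. The difference of Nle was 0.39 against replicates 1 to 3 (adjusted p = 0.034 in limma) and 0.57 against replicates 4 to 6 (adjusted p = 0.012 in limma), fits in which 1132 and 3077 of all probe sets passed. The endosomal sorting gene lgd read 5.11 ± 0.44 at 0 h and 5.45 ± 0.21 at 5 h, with overlap (adjusted p = 0.49 in limma).

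Of 11 nuclear cofactors 10 were measured, and 7 read higher and 3 lower with a median of 0.25 and none in the background. The median was 0.15 against 0 h replicates 1 to 3 and 0.33 against replicates 4 to 6. The Mediator kinase module genes kto and CycC had the largest differences of the list. The kto log2 signal was 5.61 to 7.12 at 0 h, with a median of 6.31, and 7.20, 7.22 and 7.16 at 5 h. All 5 h arrays were above all 0 h arrays and close together. Its difference of 0.83 (SE 0.27) did not pass (adjusted p = 0.17 in limma, from 0.0027 to 0.9997 over the alternative fits), and it was 1.17 against replicates 1 to 3 (adjusted p = 0.0027 in limma) and 0.48 against replicates 4 to 6 (adjusted p = 0.11 in limma). The cyclin gene CycC went from 7.52 ± 0.64 to 8.24 ± 0.22 with overlapping arrays (adjusted p = 0.33 in limma), and its log2 difference came mainly from the second set, 0.20 against replicates 1 to 3 and 1.23 against replicates 4 to 6. The same module's kinase gene Cdk8 and its skd subunit gene differed by 0.23 (SE 0.15) and -0.24 (SE 0.23) on the log2 scale, with overlapping arrays. Against replicates 1 to 3 alone all 4 module genes read higher, Cdk8 by 0.04 and skd by 0.07, while against replicates 4 to 6 skd read -0.55.

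The target genes of the E(spl) and Bearded families, transcribed in response to Notch in many tissues, read slightly lower at 5 h in 12 of 13 measured from 16, with log2 differences from -0.48 to 0.00 and a median of -0.15. Against replicates 1 to 3 the median was -0.09, where that of all genes was -0.0022, and against replicates 4 to 6 it was -0.19, where that of all genes was -0.10. E(spl)m6-BFM, E(spl)mdelta-HLH and Brd were in the background at both ages, and the other 10 all read lower. The Bearded family gene Ocho (probe set 148772_at) ranged from 3.83 to 4.79 at 0 h and was 3.79, 3.82 and 3.60 at 5 h. These values lay below all those at 0 h but close to background, with a log2 difference of -0.48 (SE 0.19) that did not pass (adjusted p = 0.29 in limma), and its second probe set read 3.92 at 0 h and 3.97 at 5 h. E(spl)m1, a Kazal-type inhibitor gene within the complex, read 5.28 ± 0.24 and 5.00 ± 0.09, a log2 difference of -0.28 (adjusted p = 0.38 in limma).

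The 5 genes listed as Hairy-type repressors, a group of bHLH proteins of which several recruit gro to DNA, were all on the array. Of these, 1 read higher and 4 lower with a median of -0.10, and whether each recruits gro was not examined. Hey, a Notch target in newly born neurons, was the higher one, with log2 signals of 5.34 to 5.65 at 0 h, a median of 5.43, and 6.07, 5.70 and 5.87 at 5 h. The arrays of Hey did not overlap between ages, and its difference of 0.41 (SE 0.12) was nearly the same against both sets of 0 h arrays, 0.40 and 0.41. It did not pass (adjusted p = 0.12 in limma, from 0.047 to 0.9997 over the alternative fits). With the array of conflicting labels the limma adjusted p of Hey was 0.34 as 0 h and 0.047 as 5 h. Sidpn read 8.52 ± 0.38 at 0 h and 8.03 ± 0.05 at 5 h, a log2 difference of -0.50 with overlap (adjusted p = 0.27 in limma). The genes h and Her were in the background by their means, although h reached 4.02 at 0 h.

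**Figure D5:**
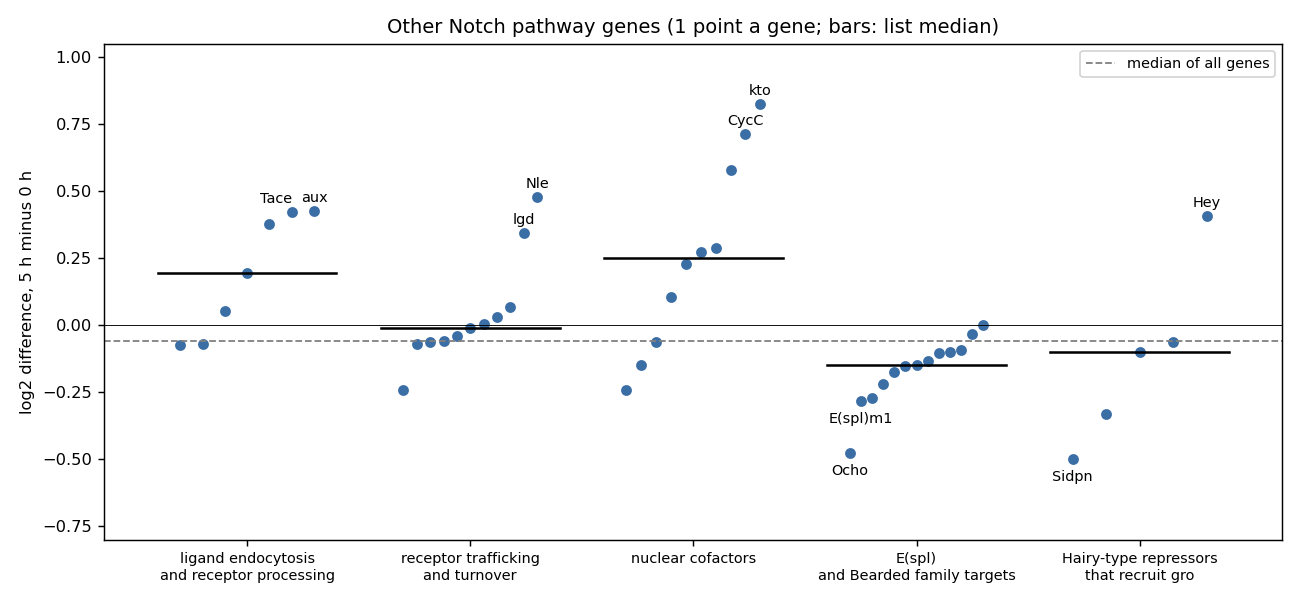
Log2 difference, 5 h minus 0 h (vertical axis), of each of 46 other Notch pathway genes in 5 lists, 1 point a gene, with the list median as a solid bar and the median of all genes, -0.06, as a dashed line. List medians run from -0.15 for the E(spl) and Bearded families to 0.25 for nuclear cofactors, and no gene shown passed the test.

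The genes whose signals ran most like those of fng and gro were found by Pearson r over the 9 grouped arrays, among 5181 probe sets above background whose gene has a single proper symbol. For fng they were Lip4, a lipase gene, with r of 0.94, DAT, the dopamine transporter gene, with 0.94, and ctp, a dynein light chain gene, with 0.93. The mean log2 signal went from 6.03 to 7.28 for Lip4, from 4.07 to 5.09 for DAT and from 6.67 to 8.16 for ctp. That they stood higher at 5 h largely follows from choosing them by likeness to fng over both ages. For gro 142820_at they were the mitochondrial aspartyl-tRNA synthetase gene AspRS-m with r of 0.98, the zinc finger gene az2 with 0.97 and the splicing factor gene B52 with 0.96. Their log2 differences, 5 h minus 0 h, were -0.22, -0.11 and -0.32. The sign they share with the gro probe set likewise largely follows from how they were chosen. All points share the same 9 libraries, including their sets at 0 h and their 3' bias, and the values of r are a description.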

How the data were processed

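Samples were 10 single Affymetrix Drosophila Genome arrays of laser-captured, linearly amplified RNA. Per the submitters' processing notes, the authors used Affymetrix Expression Console and RMA, versions not stated. The values they deposited are log2 signals, whose array medians ran from 4.30 to 4.44. The set of arrays summarised together is not stated. An array gives no count of molecules, so the number of arrays limits the precision.

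Groups were taken from the ages in the descriptions, and the array whose title disagrees was left out. Of 14010 probe sets, 44 controls were removed and 13966 tested, of which 12443 had 1 symbol, 327 several and 1196 none; no gene was named from several. Names were matched to current symbols in the platform annotation and the RefSeq gene table. Ages were compared in R 4.3.3 by the linear models of limma 3.58.1 (two-sided moderated test, no filter, no further normalization, Benjamini-Hochberg over all probe sets, threshold 0.05). The steps were tested on simulated data. A listed gene with several probe sets was read from the one that was brightest on average. P-values measure the spread between these samples, since the labels do not say what separates them beyond calling them biological replicates.

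The members and lists were chosen with earlier results of these data known. Named genes are all members, the genes past the threshold or otherwise the 2 largest differences of each list, and the 3 probe sets most like fng and gro; E(spl) genes beside gro, Cdk8, skd and single markers were named after their values were seen. Alternatives were both ages for the array with conflicting labels, median centring, repeated quantile normalization, a filter on dim probe sets, a trended and robust prior, a replicate block, each array left out, either set of 0 h arrays, the actin 3' bias as a covariate, and averaging the probe sets of a gene.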

Additional observations from a re-analysis of the deposited data

Results flagged for a closer look

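The array whose title gives 5 h and whose age label and description give 0 h enters no comparison. For 3 of the 10 member probe sets it read above all 6 arrays labelled 0 h. Dl read 5.09 on the log2 scale, where the highest 0 h array read 5.08. The fng signal was 5.50, where the highest 0 h array read 5.30 and the lowest 5 h array 5.56. For gro probe set 142039_s_at it was 7.10, where the highest 0 h array read 6.49 and the 5 h arrays 6.89 to 7.11. Marker genes that rose past the threshold went both ways on it. Like 0 h, elav was at 4.02 (5 h arrays 4.86 to 5.23), toy at 8.44 (5 h arrays 9.01 to 9.28) and 14-3-3zeta at 10.1 (5 h arrays 10.9 to 11.0). Nearer the 5 h arrays, nrv2 was at 5.36 (0 h arrays up to 4.85, 5 h arrays 5.44 to 5.56). So was bdl, at 6.27 (0 h arrays up to 4.63, 5 h arrays 6.07 to 6.47). These values assign no age to the array. No single 0 h array stood apart from the others in the 20 groups of 6 values tested with Dixon's criterion. The 5 h arrays were not tested in this way. The split among the 0 h arrays widens the range that this criterion divides by, so a single outlying array could be missed.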

How the results depend on the processing

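Counts past an adjusted p of 0.05 depended on the arrays used and on the model. For the members the count was 2, and it was 0 with the array of conflicting labels as 0 h, 0 with the actin 3' bias as a covariate, 1 after repeated quantile normalization and 5 against 0 h replicates 4 to 6 alone. For all probe sets it was 174, and under the conflicting array as 0 h and under the covariate it was 0 in limma (1693 and 552 at an unadjusted p of 0.05). It was 352 with the conflicting array as 5 h, 1132 against replicates 1 to 3 and 3077 against replicates 4 to 6. For the other pathway genes it was 0 in 15 of 20 alternatives, 2 with the conflicting array as 5 h, 3 against replicates 1 to 3 and 11 against replicates 4 to 6. Leaving out single arrays gave 0 to 2 member probe sets, 19 to 395 of all probe sets and 0 to 1 other pathway genes. The members' count was 0 without each 5 h array. Over all probe sets it was 395 without 0 h replicate 1, 98 and 105 without 0 h replicates 2 and 3, and 47, 27 and 19 without 5 h replicates 1, 2 and 3. The 1 pathway gene passed without 0 h replicate 5. The cause of these shifts was not tested.

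Deviations of same-numbered arrays from the mean of their age correlated at -0.40, 0.00 and 0.22. The split among the 0 h arrays enters these values, so they cannot show whether the replicate numbers pair the samples. With the replicate number as a block, 743 probe sets, 3 member probe sets and 2 other pathway genes passed; replicates 4 to 6 then have no partner, so this sets 5 h against 0 h replicates 1 to 3.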
